A study of Homo sapiens with 6 samples.

Results

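The RNA of amino acid transporters was compared with and without maltonis, a synthetic hydroxypyrone derived from maltol, in NB4 cells, an established cell line from human acute promyelocytic leukemia. The set consisted of 10 genes named by symbol: SLC7A5, SLC3A2, SLC7A6, SLC43A1, SLC1A5, SLC1A4, SLC38A1, SLC38A2, SLC7A1 and SLC6A9, out of 23368 symbols counted. RNA came from cells left without treatment (not treated, 3 libraries) or exposed to 10 µM maltonis for 24 h (maltonis, 3 libraries), grown in the same medium, which contained serum and added L-glutamine. The compound was dissolved in distilled water, and the labels do not state whether not treated cells received the solvent. NB4 is a single cell line, so the results hold for this line at 1 dose and 1 time. Of the 10 genes, 6 were lower after maltonis, 1 was higher and 2 did not pass the threshold, while SLC6A9 had too few counts to be tested. Calls were common in these data, since 32.1% of all genes tested were lower and 31.9% higher at the same threshold, a false discovery rate (FDR) under 0.01.

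Amino acids cross the plasma membrane through carriers of several solute carrier (SLC) families. Some of these carriers exchange one amino acid for another, and some couple uptake to sodium. SLC7A5 (LAT1) imports leucine and other large neutral amino acids in exchange for internal glutamine, and reaches the cell surface only as a dimer with the glycoprotein SLC3A2 (4F2hc, CD98). SLC1A5 (ASCT2) and the SLC38 carriers bring in glutamine with sodium, SLC7A1 (CAT1) carries arginine and lysine, and SLC6A9 (GLYT1) carries glycine. Many of these genes are known targets of the transcription factors MYC and ATF4, and leukemic blasts are known for a high demand for glutamine and leucine.

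Total counts per library ranged from 18492154 to 38205483, where 3 counts (the floor of detection for counting error) corresponded to 0.0785 to 0.162 CPM, the counts of a gene scaled to a common library size of 1e+06. That range was computed from total counts, while the CPM of genes use library sizes scaled by TMM, so the 2 scales differ slightly. The deposited files carry a code of unstated meaning in their names, which parts replicate 1 (batch A) from replicates 2 and 3 (batch B), and each batch holds both groups. All 7 promyelocyte markers were detected in every library, with MPO, the myeloperoxidase of primary granules, between 7298 and 15528 CPM. Of these markers 3 were lower after maltonis (MPO by a log2 fold change of −0.98), 3 were higher (CTSG, cathepsin G, by 2.34) and PRTN3 did not pass; the part of these changes in the results was not tested. Among the 7 lymphoid and erythroid markers, MS4A1 and HBB had no count and CD3E had at most 2 counts in any library. The summed level of that list was 45.0 to 48.0 CPM in not treated and 16.1 to 16.97 CPM in maltonis libraries, nearly all of it from CD3D, and its part in the results was not tested.

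The 2 transporters with the deepest fall, SLC7A5 and SLC7A1, are represented by the 250 bases upstream of their transcription start, from the RefSeq promoter table of build GRCh38.p14, 5′ to 3′ on the strand of the gene. Capitals mark the hexamer CACGTG, the E-box that MYC and its partner MAX are known to bind. Neither window overlaps an annotated exon.

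SLC7A5, minus strand of chr16:87869508-87869757: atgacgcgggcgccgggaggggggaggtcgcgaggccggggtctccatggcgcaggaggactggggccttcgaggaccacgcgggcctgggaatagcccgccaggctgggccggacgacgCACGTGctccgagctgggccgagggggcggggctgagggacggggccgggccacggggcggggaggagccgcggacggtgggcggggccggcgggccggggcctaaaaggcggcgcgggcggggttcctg
SLC7A1, minus strand of chr13:29595689-29595938: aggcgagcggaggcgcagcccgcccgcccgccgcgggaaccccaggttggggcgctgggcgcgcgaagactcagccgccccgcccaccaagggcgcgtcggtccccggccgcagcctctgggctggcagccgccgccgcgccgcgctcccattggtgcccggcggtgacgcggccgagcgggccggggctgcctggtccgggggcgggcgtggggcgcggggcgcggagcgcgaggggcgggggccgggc

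The SLC7A5 window held 1 E-box, whose first base lay 130 bases before the start, and 79.6% of its bases were G or C. The SLC7A1 window, with 84.4% G or C, held none. All 10 genes had at least 1 window in the table, 17 in all, because a gene with several starts has several windows. The E-box, read on both strands, was found in 3 of the 17, against 6.34% of 35116 windows of the same length. The others were upstream of SLC43A1 and before an internal start of SLC1A5. The element TGATGNAA, the ATF4 and C/EBP composite site searched for on both strands, occurred in 1 of the 17, before another internal start of SLC1A5, against 3.14% of all windows. These 3 sites are printed with 11 bases on each side, the matched letters in capitals, since the first and second place the E-box at a gene that fell and at one that did not pass the test, and the third is the only match of the other element.

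SLC43A1, first base 112 bases before the start: agcgggcgagtCACGTGcgcgtgaaact
SLC1A5, first base 50 bases before an internal start: gcgggagtggtCACGTGgacaggacggg
SLC1A5, first base 97 bases before another internal start: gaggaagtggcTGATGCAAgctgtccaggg

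A match of letters is a description and not a site of binding. Only the 250 bases before each start were searched, so elements elsewhere in or near a gene would be missed. MYC RNA itself averaged 661 ± 57.8 CPM without treatment and 185 ± 6.64 CPM with maltonis (SD, n = 3), which is −1.84 on the log2 scale (adjusted p = 1.66e-07). Whether MYC or these matches have a part in the changes of the transporters was not tested.

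SLC7A5, the light chain of the leucine exchanger, had the largest decrease of the set. Its level was 678, 770.1 and 797 CPM in not treated cells but 249.7, 229 and 223 CPM after maltonis, so that every maltonis library lay far below every not treated one. This is a log2 fold change of −1.68 ± 0.0794 (standard error, SE), which left 31.2% of the level without treatment. The quasi-likelihood test of edgeR, adjusted by Benjamini-Hochberg over all genes tested, gave an adjusted p of 3.08e-07. Of the 13209 genes tested, 7.05% had a lower log2 fold change. Within batch A alone it differed by −1.44 on the log2 scale, within batch B by −1.80. In RNA from whole cultures, fewer cells that carry a transcript and less of it per cell cannot be told apart, and this holds for each result here.

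Beside the 32.1% of all genes tested that were lower and the 31.9% that were higher, 6 of the 9 tested transporters were lower and 1 was higher. Whether the listed transporters differ from other genes in this was not tested. The median log2 fold change of the 9 was −0.83, beside 0.01 for all genes tested. The same 6 genes had all maltonis libraries below all not treated ones, a pattern seen in that direction in 37.8% of genes tested. In the other direction, 38.8% of genes tested had groups that did not overlap, as did SLC1A4 and SLC38A2, and only SLC1A5 overlapped among the 9.

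**Figure D1:**
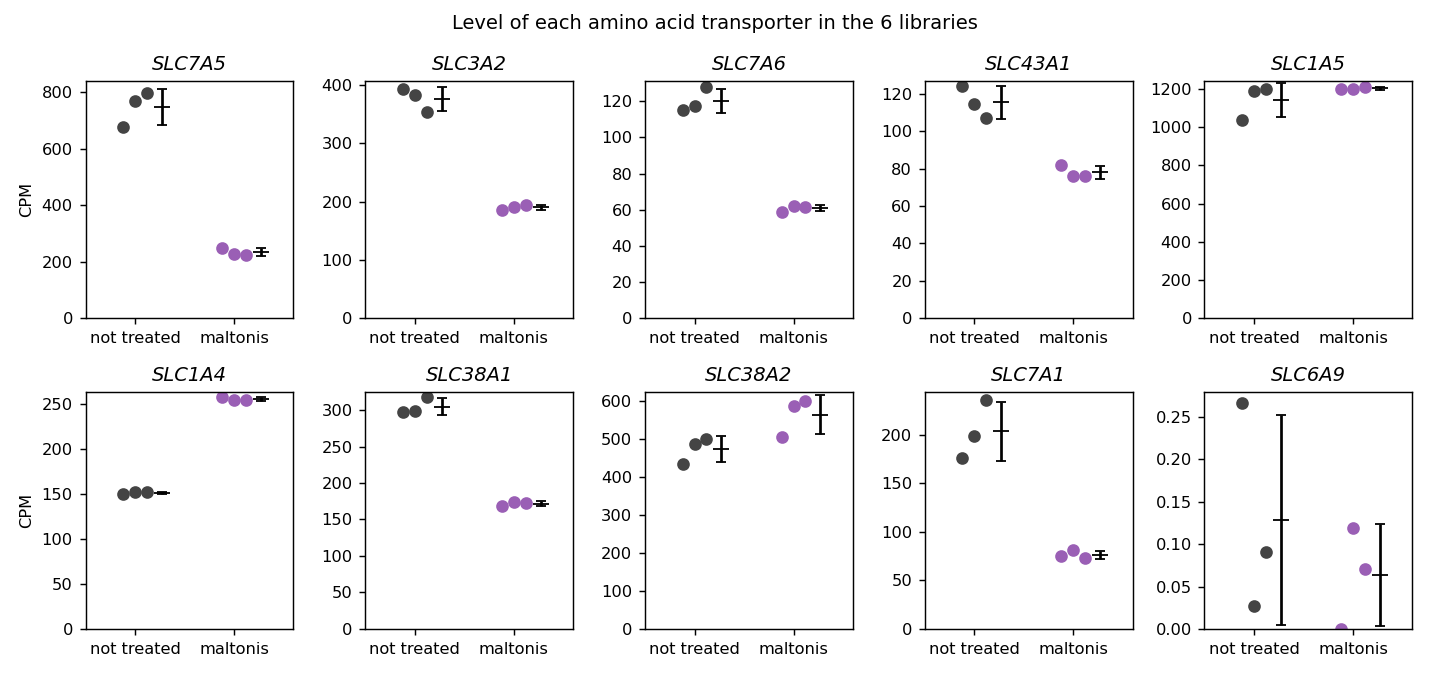
Level of each of the 10 amino acid transporters in CPM (vertical axes, each from 0), with one point per library and the mean with its SD (n = 3) beside the points. The grey not treated and the violet maltonis points do not overlap for SLC7A5, SLC3A2, SLC7A6, SLC43A1, SLC38A1 and SLC7A1, which are lower after maltonis, or for SLC1A4 and SLC38A2, which are higher.

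SLC3A2, the heavy chain that carries SLC7A5 and SLC7A6 to the surface, measured 392, 382 and 354 CPM in not treated cells, against 186, 189.8 and 194 CPM under maltonis. The maltonis libraries were close to each other and all below the not treated ones. The log2 fold change of SLC3A2 was −0.98 ± 0.0599 (SE; adjusted p = 1.19e-06), or 50.5% of the level in not treated cells. Batch A and batch B gave −1.08 and −0.94.

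SLC7A6 (y+LAT2), another light chain of SLC3A2 that exchanges cationic for neutral amino acids, showed 115, 117 and 128 CPM in not treated libraries, and with maltonis 58.9, 62.0 and 61.7 CPM. These groups were also apart, and the log2 fold change of −0.98 ± 0.0637 (SE; adjusted p = 1.72e-06) was close to that of SLC3A2. The gene overlaps SLC7A6OS on the opposite strand over 44.4% of its annotated exon bases. SLC7A6OS was itself lower, at 15.4 ± 2.03 and 5.15 ± 0.793 CPM (SD, n = 3), and whether reads were assigned by strand is not given in the sources used here.

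SLC43A1 (LAT3), a carrier of branched-chain amino acids that needs no heavy chain, fell the least of the 6. Its levels were 124, 115 and 107 CPM in not treated and 81.8, 76.3 and 75.9 CPM in maltonis cells. The lowest not treated library was still above the highest maltonis library. Its log2 fold change reached −0.57 ± 0.0714 (SE; adjusted p = 0.000103), a level 67.5% of that without treatment.

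SLC7A1, the carrier of arginine and lysine, had the second largest decrease. Its 3 not treated libraries spread over 176, 199 and 236 CPM, while those with maltonis were at 74.7, 81.0 and 73.1 CPM. SLC7A1 had a log2 fold change of −1.42 ± 0.105 (SE; adjusted p = 3.87e-06), with −1.24 for batch A and −1.49 for batch B. SLC7A5 and SLC7A1 were the 2 transporters that fell more than 2.5-fold (a log2 fold change of 1.32 in size), as did 10.4% of genes tested. Without not treated replicate 3, the library highest in SLC7A1, the log2 fold change of SLC7A1 was −1.30, which no longer reaches that limit.

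The 2 sodium-coupled SLC38 carriers, which take up glutamine, alanine and other small neutral amino acids, parted from each other. SLC38A1 (SNAT1) read 297, 299 and 318 CPM in not treated cells, compared with 168, 174 and 172 CPM after maltonis. Both groups were narrow and apart, with a log2 fold change of −0.83 ± 0.0549 (SE; adjusted p = 1.94e-06). SLC38A2 (SNAT2), the member best known for induction when amino acids are scarce, had 433, 486 and 499 CPM in not treated cells, against 504, 586 and 598 CPM under maltonis.

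The lowest maltonis library of SLC38A2 was only slightly above the highest not treated one. A log2 fold change of 0.25 ± 0.0844 (SE; adjusted p = 0.0243) missed the threshold, and it passed with the batch as a term of the fit (adjusted p = 0.000566). In both groups the library of batch A was the lowest, and the batches gave log2 differences of 0.22 (A) and 0.26 (B). Scaling by total counts, which moved the median log2 fold change of all genes by 0.12, also put SLC38A2 past the threshold.

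SLC1A4 (ASCT1), an exchanger of alanine, serine and cysteine, was the 1 transporter of the set that rose. It read 149.7, 152 and 152 CPM in not treated cells and 259, 255 and 254 CPM after maltonis. The libraries of each group differed by a few CPM only, far less than the groups. The log2 fold change of 0.76 ± 0.0497 (SE; adjusted p = 1.80e-06) corresponds to a 1.69-fold higher level, and 20.5% of genes tested rose more.

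SLC1A5, the glutamine carrier of the same family, was the most abundant of the 10 and did not pass the test. Its CPM were 1039.9, 1189 and 1200.4 without treatment and 1200.2, 1200.1 and 1212 with maltonis. Not treated replicate 1 was clearly the lowest library, and the batches gave log2 differences of 0.21 (A) and 0.01 (B). SLC1A5 had a log2 fold change of 0.07 ± 0.0680 (SE; adjusted p = 0.343), with a 95% interval from −0.08 to 0.23. An antisense gene shares 23.4% of the annotated exon bases of SLC1A5, and its reads were not analysed here.

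SLC6A9, the glycine transporter, gave 5, 1 and 3 counts in the not treated libraries, and 0, 4 and 2 counts under maltonis. These lie around the floor of 3 counts, and no difference was detectable at this depth.

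**Figure D2:**
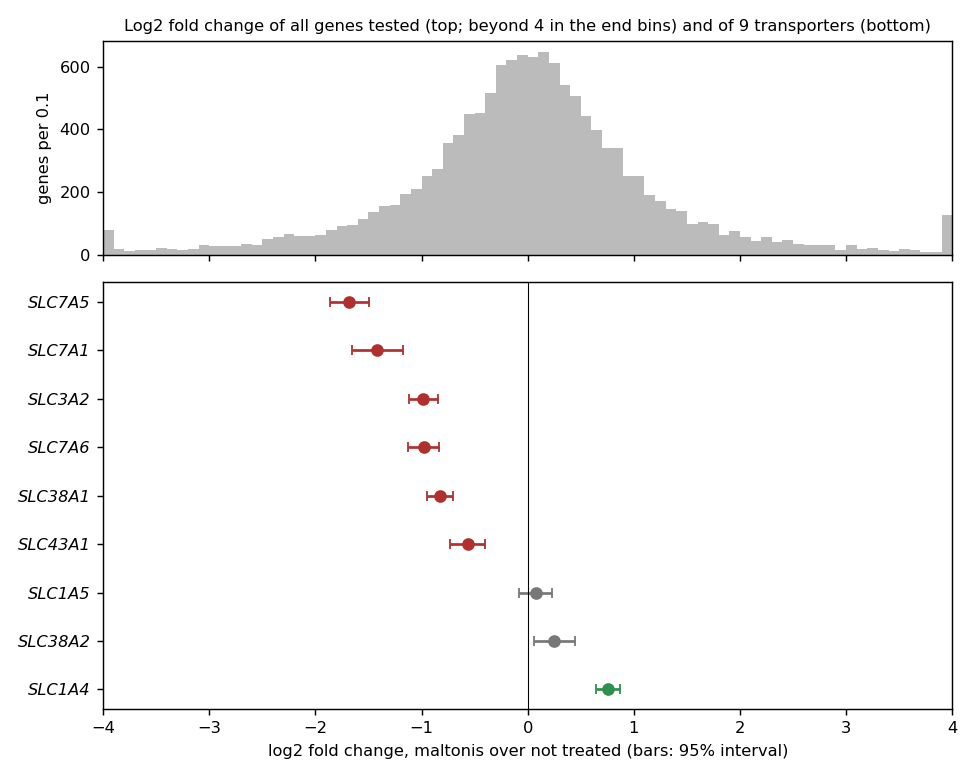
Top, number of genes tested in each 0.1 step of log2 fold change, with values beyond 4 in size placed in the end bins. Bottom, log2 fold change of the 9 tested transporters with the 95% interval of the fit, in red where lower and green where higher at an FDR under 0.01, from −1.68 for SLC7A5 to 0.76 for SLC1A4, with SLC1A5 and SLC38A2 in grey.

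To compare transporters with each other, CPM were divided by gene length in kilobases, as RPKM, where the length is that of every annotated exon base of the gene. In not treated cells the order was SLC1A5 at 343 ± 26.9 RPKM (SD, n = 3), SLC7A5 at 158 ± 13.2 RPKM, then SLC3A2 at 72.6 ± 3.89 RPKM and SLC38A2 at 71.7 ± 5.30 RPKM, whose ranges overlapped. SLC43A1, SLC38A1 and SLC7A1 followed with 32.7, 30.4 and 26.5 RPKM, each overlapping its neighbour. SLC1A4 at 21.8 RPKM and SLC7A6 at 15.8 RPKM came next, each apart from the gene above it, and SLC6A9 at 0.0248 RPKM was last.

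After maltonis SLC1A5 remained first, at 361 ± 1.995 RPKM (SD, n = 3), and SLC38A2 was second at 85.3 ± 7.76 RPKM. SLC7A5 came next with 49.2 ± 2.99 RPKM. SLC1A4 and SLC3A2 overlapped at 36.9 and 36.7 RPKM, and the lower places were held by SLC43A1, SLC38A1, SLC7A1 and SLC7A6 at 22.1, 17.1, 9.91 and 8.02 RPKM, none overlapping its neighbour. The length used decided the place of SLC3A2, whose longest transcript has 2222 bases while all its exons sum to 5178 bases. With the longest transcript SLC3A2 was second without treatment, at 169 RPKM beside 165 RPKM for SLC7A5, with overlapping ranges, and with maltonis it stood above SLC7A5, at 85.5 RPKM beside 51.5 RPKM. Without treatment, the longest transcript also made SLC7A1 and SLC1A4 overlap, at 27.7 and 26.2 RPKM. SLC43A1, SLC38A1 and SLC7A1 were then apart from each other.

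The summed RPKM of the 10 transporters amounted to 721, 792 and 804 in not treated libraries, and to 619.8, 628 and 632 under maltonis. SLC1A5 made up 44.4 ± 0.956% of that sum without treatment and 57.7 ± 0.410% with maltonis (SD, n = 3), at a nearly constant level of its own. SLC7A5 went from 20.4 ± 0.545% to 7.86 ± 0.556% of the sum. SLC38A2 moved from 9.27% to 13.6% and SLC1A4 from 2.83% to 5.89%. SLC3A2 went from 9.44% to 5.86%, or from 17.3% to 10.9% with its longest transcript.

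**Figure D3:**
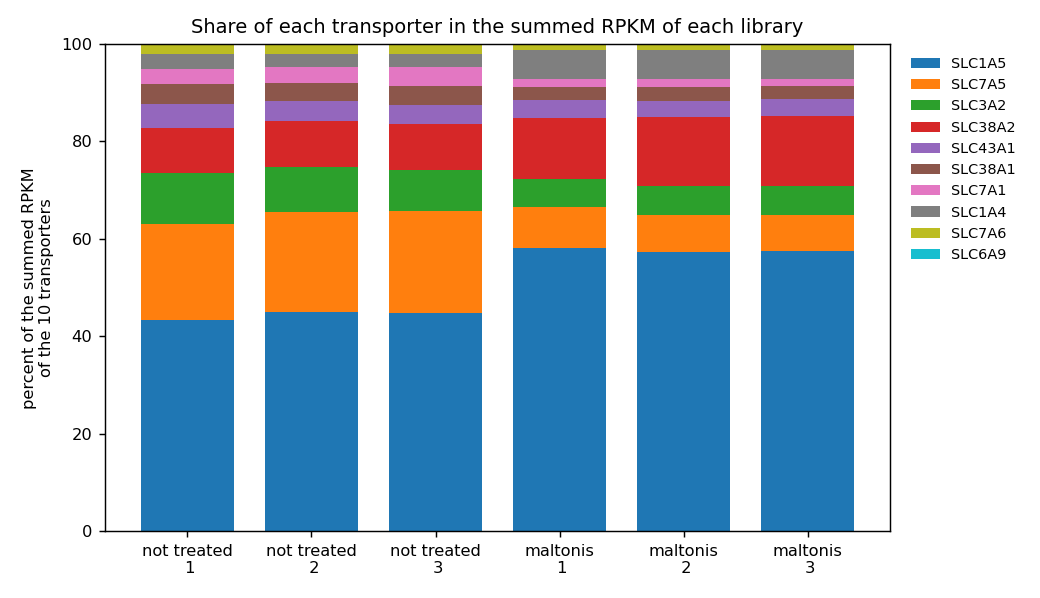
Share of each transporter, in percent, in the summed RPKM of the 10 transporters, one stacked bar per library. SLC1A5 (blue) grows from a mean of 44.4% to 57.7% and SLC7A5 (orange) shrinks from 20.4% to 7.86%, while SLC6A9 is too low to be seen.

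Ratios between functional partners or relatives were formed within each library from the counts themselves, so that no scaling between libraries enters, and 5 pairs were compared. The light chain SLC7A5 had 1.73, 2.01 and 2.25 counts for each count of its heavy chain SLC3A2 in not treated cells. After maltonis it had 1.34, 1.20 and 1.15, a log2 difference of −0.69 with no overlap. Against SLC43A1, a leucine carrier without heavy chain, SLC7A5 went from 5.45, 6.70 and 7.44 to between 2.93 and 3.05 counts, a log2 difference of −1.11.

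SLC38A1 had 0.685, 0.614 and 0.636 counts for each count of SLC38A2 in not treated libraries and 0.334, 0.298 and 0.288 after maltonis. The log2 difference was −1.07, and the ratios of the groups did not overlap. SLC1A5 went from 6.95, 7.81 and 7.89 to 4.64, 4.70 and 4.76 counts for each count of SLC1A4, which is −0.68 on the log2 scale. In these 4 pairs a two-sided exact permutation test over the 6 libraries gave p = 0.1 (the lower limit of this test with groups of 3; 0.125 after Benjamini-Hochberg adjustment over the 5 pairs), so that this test cannot reach 0.05 with these groups.

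The other light chain, SLC7A6, held a mean log2 ratio to SLC3A2 of −1.65 ± 0.159 in not treated and −1.64 ± 0.0243 in maltonis cells (SD, n = 3). The difference of 0.004 was smaller than the spread between replicates (exact permutation test, p = 1).

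**Figure D4:**
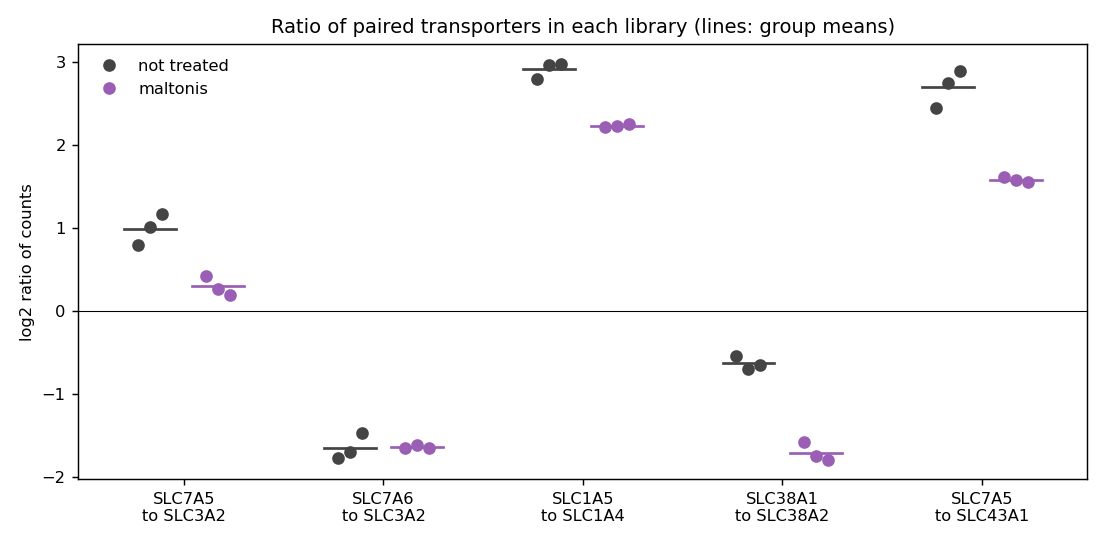
Log2 ratio of the counts of 2 transporters in each library (points) with group means (lines), not treated in grey and maltonis in violet. The groups are apart and the ratio is lower after maltonis in every pair but SLC7A6 to SLC3A2, whose means are −1.65 and −1.64.

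Other amino acid transporters, of the same and some further families, were rarely expressed in NB4 cells. Of 35, 11 had enough counts to be tested and 9 had none in any library. Among the 11, 6 were higher and 3 lower, with a median log2 fold change of 0.36. Over all genes tested, 31.9% were higher and 32.1% lower, with a median of 0.01. These shares apply beside this list and each list below, and whether any list differs from them was not tested. SLC38A5 (SNAT5), a glutamine carrier, had the deepest fall, with 137 ± 14.6 CPM in not treated and 33.7 ± 1.43 CPM in maltonis cells (SD, n = 3) and a log2 difference of −2.02 (adjusted p = 2.04e-07). SLC7A2 (CAT2), which like SLC7A1 carries arginine, fell from 139.5 to 47.9 CPM, and SLC16A10, a carrier of aromatic amino acids, from 9.30 to 4.30 CPM. SLC43A2 (LAT4), the close relative of SLC43A1, was higher, with 5.93 ± 0.158 CPM in not treated and 26.5 ± 2.48 CPM in maltonis cells (SD, n = 3) and a log2 difference of 2.15 (adjusted p = 2.39e-07). SLC1A3, a glutamate carrier, rose from 3.54 to 7.74 CPM, and SLC7A7, a further light chain of SLC3A2, from 0.826 to 1.74 CPM. SLC7A11, the cystine and glutamate exchanger that also pairs with SLC3A2, was higher by a log2 fold change of 0.36 (adjusted p = 0.00416). The list had 5 genes higher instead of 6 when not treated replicate 2 or 3, or maltonis replicate 2 or 3, was left out. Which gene then lost its call is not reported here.

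Transporters of the lysosomal membrane, several of which release amino acids from protein breakdown, were divided. Of 9, 8 were tested, 4 were higher and 3 lower, with a median of −0.08. PQLC2, an exporter of cationic amino acids, rose from 10.5 ± 1.40 to 34.7 ± 2.63 CPM (SD, n = 3) and SLC36A1, a proton-coupled exporter of small amino acids, from 8.76 to 28.3 CPM, with log2 fold changes of 1.74 and 1.69. CTNS, the cystine exporter, was higher by 0.44. The lysosomal arginine sensor SLC38A9 had a log2 fold change of −0.81, SLC38A7, which exports glutamine, one of −1.09, and MFSD12 one of −0.79.

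Carriers that bring amino acids into mitochondria had more genes lower than higher, beside 32.1% lower and 31.9% higher among all genes tested. Of 11, 10 were tested, 6 were lower and 2 higher, and their median log2 fold change was −0.70. SLC25A12 (AGC1), an exchanger of aspartate and glutamate, went from 40.5 ± 1.53 CPM down to 11.8 ± 1.21 CPM (SD, n = 3), −1.78 on the log2 scale (adjusted p = 4.41e-07). Its relative SLC25A13 rose from 90.0 to 108 CPM, by 0.27 on the log2 scale, and this call was lost when any single library except not treated replicate 1 was left out (log2 fold changes from 0.23 to 0.26, adjusted p from 0.0149 to 0.0307). SFXN3 and SLC25A29, carriers of serine and of basic amino acids, had log2 fold changes of −1.51 and −1.16, and SLC25A44, a carrier of branched-chain amino acids, one of 0.49.

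Of 32 genes that relay amino acid levels to the growth kinase complex mTORC1, 31 were tested, with 14 higher and 9 lower and a median of 0.12. KPTN and DEPDC5, parts of complexes known to restrain mTORC1 when amino acids are low, rose by log2 fold changes of 1.84 and 1.51, from 37.2 to 133 and from 24.8 to 70.3 CPM. SESN3, of the sestrin family of stress-induced mTORC1 inhibitors, rose by 1.07. MIOS, of the complex that opposes DEPDC5, had a log2 fold change of −1.11, and the lysosomal scaffold genes HBXIP and LAMTOR2 had −1.26 and −0.79. Of the same scaffold, LAMTOR3 and LAMTOR1 were higher, by 0.83 and 0.41, and C7orf59 was lower, at −0.44. RRAGA, RRAGB and RRAGC rose by 0.76, 0.90 and 0.93, and RRAGD did not pass. The kinase gene MTOR was higher by 0.41, while RPTOR was lower, at −0.77. What these changes mean for mTORC1 activity was not tested.

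The list of 26 genes of the response to amino acid shortage, the pathway of EIF2AK4 and ATF4 known to induce several transporters of the set, had 25 genes tested. Of these, 13 were lower and 7 higher, with a median of −0.23. ATF4 was itself lower, at a log2 fold change of −0.49, and its target ASNS, asparagine synthetase, at −0.40. Other genes of the list went the other way, such as DDIT3 and SESN2, higher by 1.50 and 0.98. The lists overlap, since SESN2 is also among the mTORC1 genes and SLC7A11 is both in this list and among the other transporters. STC2, PYCR1 and GPT2 had the deepest falls, −3.05, −1.79 and −1.64, where PYCR1 makes proline and GPT2 alanine. CHAC1, which degrades glutathione, CTH, which makes cysteine, and DDIT4, an inhibitor of mTORC1, rose, the first pair by 3.06 and 2.04 and DDIT4 from 45.8 to 139 CPM. CHAC1 went from 0.504 ± 0.0863 to 4.16 ± 0.603 CPM (SD, n = 3). STC2 was at 0.265 CPM after maltonis, near the floor, which leaves the size of its change uncertain.

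Enzymes that act on imported amino acids contained the deepest fall among the lists. Of 26, 20 were tested, 6 were lower and 9 higher, with a median of 0.45. Both branched-chain aminotransferases, which take the amino group from leucine, isoleucine and valine, fell, BCAT2 from 36.6 ± 3.39 to 3.84 ± 0.612 CPM and BCAT1 from 794 ± 15.2 to 171 ± 7.92 CPM (SD, n = 3). Their log2 fold changes were −3.27 (adjusted p = 1.15e-07) and −2.21 (adjusted p = 2.77e-08). GOT2, the mitochondrial aspartate aminotransferase, had a log2 fold change of −2.65. KMO of tryptophan breakdown, SHMT1 of serine and glycine exchange and BCKDHA of branched-chain keto acid breakdown rose by 1.88, 0.89 and 0.88.

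**Figure D5:**
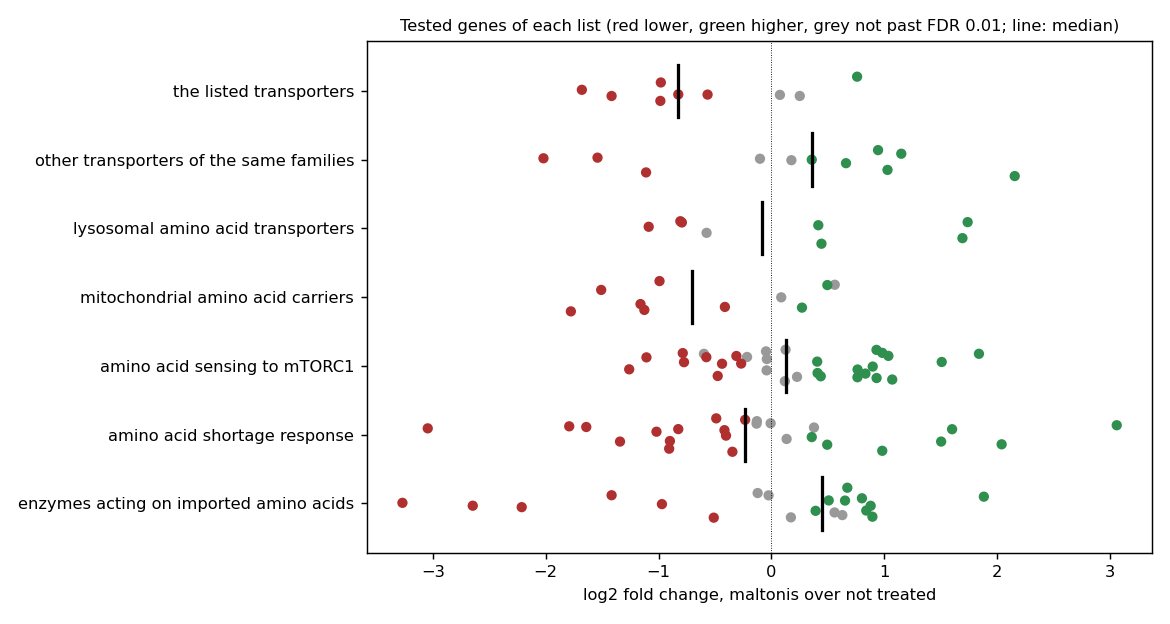
Log2 fold change (horizontal axis) of each tested gene of 7 lists, red where lower and green where higher at an FDR under 0.01, grey otherwise, with the median of the list as a black line. The medians run from −0.83 for the listed transporters and −0.70 for mitochondrial carriers to 0.45 for enzymes acting on imported amino acids, and every list holds genes in both directions. The list of other transporters also holds SLC16A10 and SLC36A4, which belong to other families.

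Among the 5 genes whose profile over the 6 libraries was nearest to that of SLC7A5, by Euclidean distance between centred log2 CPM, were RAB3D, VASH1, PPP1R16B and RAP1GAP2, at distances of 0.110, 0.138, 0.141 and 0.150. With only 2 groups this likeness reflects mainly a similar size of decrease, and the log2 fold changes of these 4 lay between −1.75 and −1.68. None of them is an amino acid transporter. The pseudogenes SLC7A5P1 and SLC7A5P2, partial copies of SLC7A5 whose reads could be exchanged with it, had means of at most 9.09 CPM in either group and log2 fold changes of 0.14 and −0.30 (adjusted p = 0.452 and 0.0890), so that they hold few counts beside SLC7A5.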

How the data were processed

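RNA was sequenced from stranded, ribosomal RNA-depleted libraries of NB4 cells, 3 per group. The authors deposited 1 table of raw counts per library, made with HTSeq; TopHat, Bowtie2 and hg19 are named in the submitters' processing notes. The annotation and strand setting are not given in the sources used here. The 10 transporters and all gene lists were chosen with earlier results of these data known.

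Counts of all symbols were fitted in R 4.3.3 with edgeR 4.0.16 (TMM, filterByExpr, quasi-likelihood test of the 6 libraries, no covariates), with Benjamini-Hochberg adjustment over 13209 genes and calls at an FDR under 0.01. Every adjusted p-value of a gene comes from this test unless another is named. Standard errors were derived from the unshrunken coefficient and the F statistic. CPM use TMM library sizes. Lengths are from GENCODE 29 (GRCh38), matched by symbol, and promoter sequences from RefSeq; no protein sequence was used. The fit was first tested on simulated counts. Beside the 10 genes, the text names MYC, for each list up to 3 largest changes per direction, taken from genes past the threshold with no overlap between groups, and the 5 genes nearest to SLC7A5. Some genes are not reported here. SLC7A11, ATF4, ASNS, DDIT3 and SESN2 were added after their values were seen, and SLC7A5P1, SLC7A5P2 and SLC7A6OS for their shared sequence. LAMTOR1, LAMTOR3, C7orf59, RRAGA, RRAGB, RRAGC, RRAGD, MTOR and RPTOR were also added after their values were seen. Gene symbols are those of the files, where PQLC2 is now SLC66A1 and HBXIP is LAMTOR5.

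No replicates differed by as little as sampling noise (chi-square per degree of freedom of 4.33 or more), so each library counts as 1 sample. The study describes them as biological replicates; the sources used here do not say whether cultures were grown separately, and p-values measure the spread between these libraries.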

Additional observations from a re-analysis of the deposited data

How the results depend on the processing

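Alternatives were scaling by total counts, by upper quartile or by the size factors of DESeq2 1.42.0, no filter, the DESeq2 test, a likelihood ratio test, the replicate block, the batch as a term, an FDR under 0.05, each library left out, another gene length and a pseudocount. SLC7A5, SLC3A2, SLC7A6, SLC43A1, SLC38A1, SLC7A1 and SLC1A4 kept their direction and side of the threshold in all 15 alternatives of the fit, with log2 fold changes of −1.76 to −1.56, −1.03 to −0.87, −1.02 to −0.86, −0.62 to −0.45, −0.86 to −0.71, −1.52 to −1.30 and 0.73 to 0.88. SLC1A5 stayed between 0.00 and 0.19.

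The number of transporters that were higher became 2 with total counts, upper quartile, the replicate block, the batch term or an FDR under 0.05, each time by SLC38A2 (adjusted p between 0.000566 and 0.157 over all alternatives). Those past 2.5-fold numbered 1 with total counts, and 1 to 2 with a library left out. The number of mitochondrial carriers that were higher was 1 to 2 with a library left out. Other list counts varied too. With total counts, shortage response genes lower went from 13 to 10 and enzymes higher from 9 to 11. The mTORC1 genes lower numbered 9 in the main fit, 7 with total counts and 11 with the batch term. The difference in the ratio of SLC7A6 to SLC3A2 changed sign with a library left out, from −0.0576 to 0.0936. The cause was not tested, except that total counts shift the median of all genes by 0.12.

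The deviations of same-numbered libraries from their group means correlated at 0.301, 0.0852 and 0.161, the first being the 2 libraries of batch A. Replicates 2 and 3 share a batch, so within it the number marks nothing further that the labels state, and the pairing was not used; not treated replicate 2 resembled maltonis replicate 3 most. Under the replicate block 6 transporters were lower and 2 higher. SLC6A9, at 9 and 6 counts in all, is limited by depth.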
